A study of Mus musculus with 2 samples.

Results

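The immunity-related GTPases described here are the 6 genes Irgm1, Irgm2, Igtp (also called Irgm3), Iigp1 (Irga6), Tgtp1 and Tgtp2 (Irgb6), taken by symbol from the 32432 genes of the count matrices. Each symbol names 1 row of the tables, and the genes held between 1769 UMIs (Tgtp1) and 33727 UMIs (Iigp1) over all kept cells. These genes were described across leukocyte types of a tumour and across both genotypes of the study. Immunity-related GTPases are dynamin-like enzymes that interferon gamma, and more weakly type I interferon, switch on in most mouse cells. The effectors Iigp1, Tgtp1 and Tgtp2 coat and rupture the vacuoles in which parasites and some bacteria live. The regulators Irgm1, Irgm2 and Igtp sit on the cell's own membranes and hold the effectors inactive there, and Irgm1 is also known for roles in autophagy and in lymphocyte survival.

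Leukocytes came from B16-F10 tumours, a transplanted mouse melanoma, grown in the skin of both legs of male mice aged 8 to 12 weeks. Trex1 is a DNA exonuclease that keeps cytosolic DNA from setting off interferon. The Trex1 iKO group was Trex1 fl/fl R26CreERT2-ki/wt, in which both Trex1 alleles can be cut, and the Trex1 control group was Trex1 wt/fl R26CreERT2-ki/wt, which carries 1 cuttable allele and is not wild type. Both groups carried the Cre enzyme, which is made from the ubiquitous Rosa26 locus and acts after tamoxifen, so the deletion was not limited to 1 cell type. Tamoxifen was given to both (1 mg on 3 days, the first being day 5), with harvest of the tumours on day 14. CD45-positive live cells were sorted and run as droplet 3' single-cell libraries, with 4 hashtagged samples for each genotype in 1 pool per genotype. Every genotype difference given here is therefore also a difference between the 2 pools, and these cannot be told apart. The labels do not say whether a hashtagged sample is 1 mouse, so p-values measure only the spread between these samples. Trex1 itself had 2 UMIs in all 8 samples together, both in control sample 2, so these counts do not check the deletion.

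After filtering, 22052 cells remained, with median depths of 5794 to 11490 UMIs per deposited barcode in control samples and 12535.5 to 14221 in iKO samples. Cells were assigned to 13 leukocyte types from lineage markers, none of which is an immunity-related GTPase, and UMIs were summed for each type and sample. A level is the CPM of such a sum, its UMIs scaled to a common total, and only sums of at least 20 cells were used. Of markers that no gate read, Apoe averaged 1924 CPM in iKO and 4550 CPM in control macrophages against 23.3 and 78.7 CPM in CD8 T cells. In monocytes Apoe averaged 609.5 CPM in iKO and 1782 CPM in control samples. Across iKO samples Apoe ran from 344.6 to 896.2 CPM in monocytes and from 538.7 to 3886 CPM in macrophages, so these ranges overlapped. Ly6c2, a marker of inflammatory monocytes that T cells also make, averaged 2605 CPM in iKO and 440.4 CPM in control monocytes, 1419 and 182.0 CPM in macrophages and 1047 and 356.4 CPM in CD8 T cells, so it separated these types poorly in controls. Its ranges in iKO monocytes (1855 to 3334 CPM) and iKO macrophages (591.6 to 2193 CPM) overlapped as well. In sums of all cells, fewer cells of a type and less RNA per cell cannot be told apart. 41 barcodes occurred in both pools and none was repeated within a pool.

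RefSeq promoter windows (build GRCm38.p6, 250 bases before to 50 bases after each annotated gene start) were found for 5 of the 6 genes. They are shown because interferon acts on these genes through short promoter elements. The 110 bases before each gene start are printed in the direction of transcription. Capitals mark matches, on either strand, to GAAA, any 2 bases and GAAA, the core of an interferon-stimulated response element (ISRE), and to TTCNNNGAA, the core of a gamma-activated site (GAS). Irgm1 (chr11:48871421-48871530, minus strand), Irgm2 (chr11:58214867-58214976, plus strand), Igtp (chr11:58199446-58199555, plus strand), Tgtp1 (chr11:48992247-48992356, minus strand) and Tgtp2 (chr11:49064213-49064322, minus strand) read as follows.
Irgm1: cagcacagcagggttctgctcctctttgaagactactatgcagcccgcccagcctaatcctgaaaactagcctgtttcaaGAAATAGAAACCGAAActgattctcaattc
Irgm2: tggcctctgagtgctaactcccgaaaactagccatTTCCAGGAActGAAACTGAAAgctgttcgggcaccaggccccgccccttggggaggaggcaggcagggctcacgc
Igtp: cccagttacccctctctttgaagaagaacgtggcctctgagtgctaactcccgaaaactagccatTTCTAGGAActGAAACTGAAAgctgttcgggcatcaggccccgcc
Tgtp1: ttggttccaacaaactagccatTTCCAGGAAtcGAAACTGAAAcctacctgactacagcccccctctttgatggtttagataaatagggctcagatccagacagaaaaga
Tgtp2: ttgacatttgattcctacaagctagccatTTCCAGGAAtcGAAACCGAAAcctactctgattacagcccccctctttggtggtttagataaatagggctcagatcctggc

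All 5 windows held an ISRE-type match, which 3.443% of the 32851 windows of the table did. The match began 64 bases before the gene start in Irgm2 (position -64), at -34 in Igtp, at -77 in Tgtp1 and at -70 in Tgtp2. Irgm1 held 2 overlapping matches, at -30 and -24. A GAS-type match stood in 4 of the 5 windows, all but that of Irgm1, against 8.298% of all windows. In each of those 4 it began exactly 11 bases before the ISRE-type match, and a GAS-type match that close (at most 20 bases) before an ISRE-type match occurred in 30 of all windows, 0.09132%. Over 60 bases aligned on the ISRE-type match, Igtp and Irgm2 shared 58 bases and Tgtp1 and Tgtp2 shared 46, while Irgm1 shared 19 with Irgm2. A match is a description of letters and not a measured binding site.

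**Figure D1:**
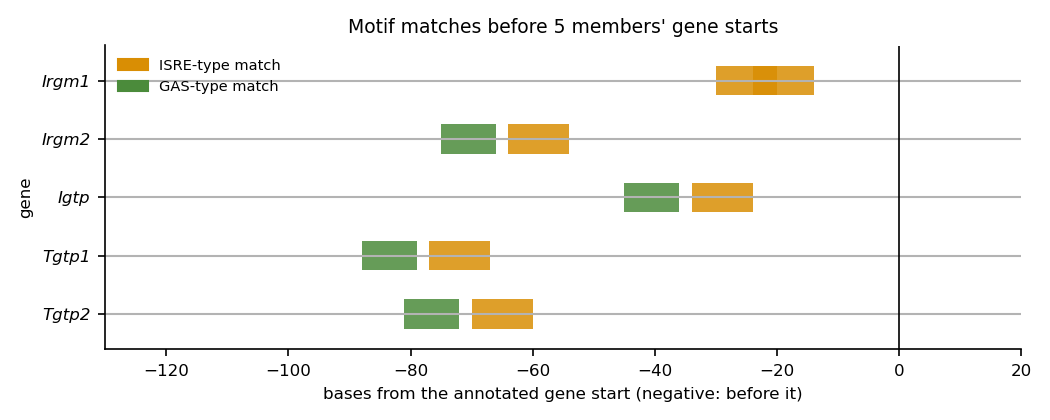
Positions of ISRE-type matches (orange) and GAS-type matches (green) in the promoter windows of 5 immunity-related GTPases, with the x axis in bases from the annotated gene start and 1 row per gene. In Irgm2, Igtp, Tgtp1 and Tgtp2 the GAS-type match begins 11 bases before the ISRE-type match, and Irgm1 has 2 overlapping ISRE-type matches and no GAS-type match.

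The GENCODE annotation of the same build bears on how far counts of these genes can be told apart. The last 500 bases of the longest coding transcript of Tgtp1 were searched in 50-base windows, and 100% of the 451 windows occurred unchanged in transcripts of Tgtp2, and the reverse also held. Counts of Tgtp1 and Tgtp2 are therefore uncertain, since reads of their shared ends could fall to either copy or be dropped, and Tgtp1 was the lowest of the 6 genes in UMIs. No such window was shared between any other pair of the 6. In this GENCODE annotation Irgm2 starts within Igtp on the same strand, so reads in the overlap are uncertain as well. The RefSeq windows printed above are from another annotation and end at 58199555 for Igtp and at 58214976 for Irgm2.

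Control tumours showed which leukocytes hold these transcripts. Levels of a gene are compared here between cell types and never between genes. The order of types is by the control mean of log2(CPM + 1) over the 9 tested types. Of the regulators, Igtp averaged 131.1 ± 64.3 CPM (SD, n = 4) in regulatory T cells (Treg) and 27.7 ± 13.1 CPM in macrophages of control samples. In that order its highest control levels were in Treg and CD4 T cells and its lowest in B cells. Irgm2 had the same 3 types at the ends of its order, although by mean CPM mature dendritic cells (5.13 CPM) were below B cells (9.39 CPM). Irgm1 had the narrowest range of the 6 over these 9 types, from 19.4 ± 4.0 CPM in control CD8 T cells to 55.0 ± 29.8 CPM in control cDC2.
Among the effectors, Iigp1 was highest in Treg (132.1 ± 103.9 CPM in controls) and lowest by mean log2 level in mature dendritic cells. Its mean CPM was instead lowest in neutrophils (8.06 CPM). Mature dendritic cells averaged 16.0 CPM of Iigp1, with control samples from 0 to 32.7 CPM. In the same order of 9 types, Tgtp1 and Tgtp2 were highest in CD4 T cells, with Tgtp1 lowest in B cells and Tgtp2 in neutrophils. By mean CPM, however, mature dendritic cells (10.9 CPM) were above CD4 T cells for Tgtp1. Types outside the order could exceed these ends: the 2 control sums of gamma-delta T cells averaged 65.1 CPM for Irgm1, 17.4 CPM for Tgtp1 and 21.7 CPM for Tgtp2, against 10.2 and 18.9 CPM of Tgtp1 and Tgtp2 in CD4 T cells.

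The highest and the lowest type of each gene were set against each other within each of the 8 samples. The difference in log2(CPM + 1) was 3.93 ± 2.15 (SD) for Iigp1 between Treg and mature dendritic cells, and it was above 0 in 8 of 8 samples. It was 3.80 ± 1.79 for Igtp between Treg and B cells, 2.59 ± 1.60 for Irgm2 between the same types, 2.97 ± 1.08 for Tgtp1 between CD4 T and B cells and 2.83 ± 1.15 for Tgtp2 between CD4 T cells and neutrophils. Each of these 4 was also above 0 in 8 of 8 samples. For Irgm1 it was 1.28 ± 1.02 between cDC2 and CD8 T cells and above 0 in 7 of 8. The ends were picked by the control levels themselves, so these values describe the range and no p-value is given for them. With 10 CPM added in place of 1, neutrophils were lowest for Iigp1 and mature dendritic cells for Irgm2. Neighbours in the order were compared by an exact two-sided sign-flip permutation test of within-sample differences. They did not pass in any of 48 pairs (smallest adjusted p = 0.075), and 8 samples cannot give an exact p below 0.0078.

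**Figure D2:**
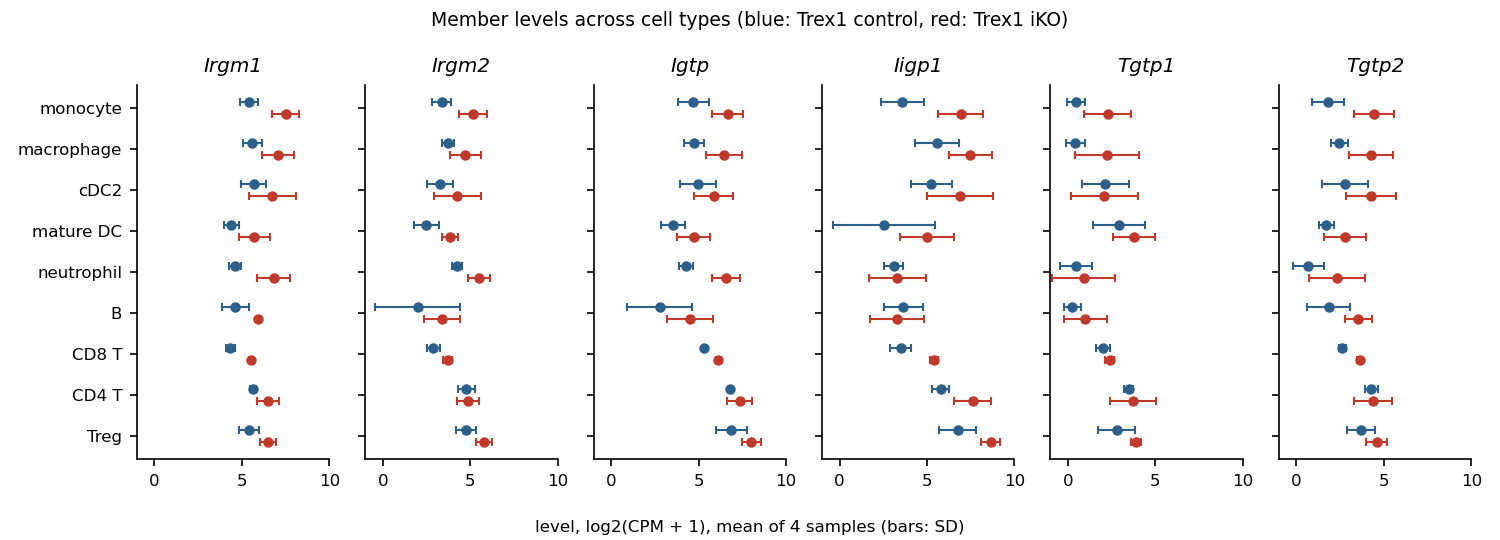
Levels of the 6 immunity-related GTPases in 9 leukocyte types, as the mean of log2(CPM + 1) over 4 control samples (blue) and 4 iKO samples (red), with the SD as bars. Treg and CD4 T cells stand at the upper end for Igtp, Irgm2, Iigp1 and Tgtp2 in controls, and Irgm1 has the narrowest range between these types.

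Genes of the family rose in iKO samples in 6 of 9 tested types, among them T cells, B cells, monocytes and neutrophils, and none was called in macrophages, cDC2 or mature dendritic cells. Of 41 pairs of gene and cell population that passed the low-count filter, all 41 had a log2 fold change (iKO over control) above 0, and 18 passed an adjusted p of 0.05 in edgeR's quasi-likelihood test. The median log2 fold change over all genes tested ran from -0.024 in CD8 T cells to 0.0067 in neutrophils. The 41 pairs share the 8 samples, and 6 of them are sums of all cells, so they are not separate results. By type, 5 genes rose in monocytes, 4 in CD8 T cells, 3 in neutrophils, 2 in Treg, and 1 each in CD4 T cells and B cells. Irgm1 rose in 5 of the 9 types in which it was tested, Iigp1 in 4 of 7, Igtp in 3 of 8, Irgm2 in 2 of 6 and Tgtp2 in 2 of 5. Over all genes tested, the share called higher ran from 0.519% in mature dendritic cells to 8.16% in monocytes. Tgtp1 passed the filter in no single type. Among values under the filter, Iigp1 in B cells averaged 13.7 CPM in iKO and 15.1 CPM in control samples. The filter reads the group sizes, so a gene seen mainly in iKO samples could pass through them. Irgm1 in B cells passed in this way. These counts are given per type beside the share of all genes called.

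**Figure D3:**
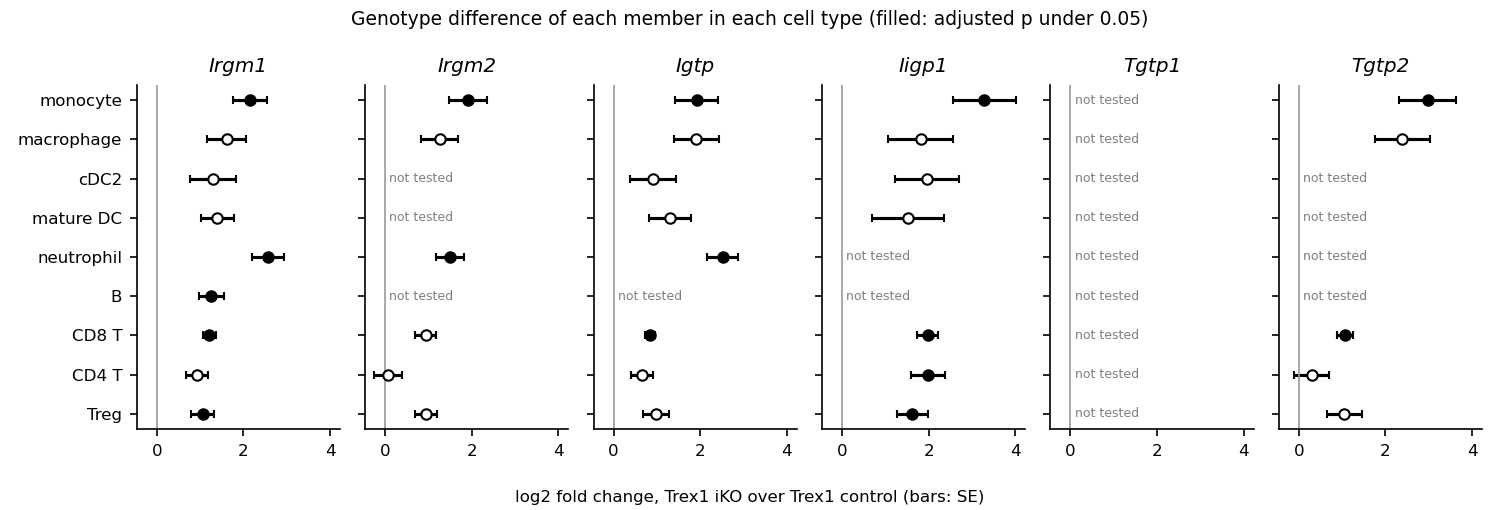
Log2 fold change of each immunity-related GTPase between Trex1 iKO and Trex1 control samples (x axis, SE as bars) in 9 leukocyte types (rows), filled where the adjusted p was under 0.05 in edgeR. All plotted points lie above 0, and the monocyte points of Iigp1 and Tgtp2 lie farthest to the right.

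CD8 T cells gave the tightest values. Irgm1 in CD8 T cells measured 40.9, 46.5, 45.4 and 45.8 CPM in iKO samples 1 to 4 against 17.7, 16.9, 25.3 and 17.7 CPM in the controls, listed in the same order. All iKO samples lay above all controls, and the 4 iKO values lay within 6 CPM of each other. The log2 fold change was 1.21 ± 0.14 (SE, adjusted p = 0.0013). Iigp1 measured 34.9, 44.2, 49.2 and 38.7 CPM in iKO samples and 10.9, 5.2, 12.7 and 14.6 CPM in controls, again without overlap. It rose by 1.98 ± 0.24 (adjusted p = 0.0013), the largest fold change of the 5 genes tested in CD8 T cells. Igtp rose by 0.84 ± 0.12 (adjusted p = 0.0031) from 39.3 ± 2.9 to 69.2 ± 7.7 CPM (SD, n = 4), and Tgtp2 by 1.06 ± 0.18 (adjusted p = 0.0115) from 5.19 ± 0.93 to 11.2 ± 1.0 CPM. Irgm2 stood at 0.93 ± 0.23 and missed the threshold (adjusted p = 0.0556). With the sample number as a replicate block it passed (0.87 ± 0.21, adjusted p = 0.0227).
In CD8 T cells 4 of the 6 genes had all iKO samples above all control samples, where 5.13% of genes with a mean of at least 1 CPM did so. The edgeR call was made for 4 of the 5 genes tested, against 2.18% of the 9397 genes tested that were higher in iKO. Igtp, Iigp1 and Irgm1 passed with any 1 sample left out (adjusted p up to 0.0154). Tgtp2 was lost without iKO sample 2 (adjusted p = 0.0659), and Irgm2 passed without control sample 4 (0.0465) or iKO sample 1 (0.0373).

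Whether the 6 genes differed in how much they rose within CD8 T cells was also compared. The within-sample difference between 2 genes in log2(CPM + 1) was compared between genotypes by an exact two-sided permutation test. Iigp1 differed more between genotypes than Igtp by 1.12, than Irgm2 by 1.10, than Tgtp2 by 0.93, than Irgm1 by 0.74 and than Tgtp1 by 1.54. Each of these had an exact p of 0.0286, the smallest that 4 samples against 4 can give, and an adjusted p of 0.0714 over 15 pairs, so none passed. A pair could pass only if most of the 15 stood at that smallest p. In macrophages no pair passed either (smallest adjusted p = 0.214).

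RNA released from other cells was gauged with the C1q genes, which macrophages make. Their summed level in CD8 T cells was 0.749% of that in macrophages in iKO samples and 1.18% in controls. At those shares macrophage RNA would account for 1.14 of the 44.7 CPM of Irgm1 measured in iKO CD8 T cells and for 0.595 of 19.4 CPM in controls. For Iigp1 it would account for 1.71 of 41.7 CPM and 0.777 of 10.8 CPM. The C1q share was lower in iKO than in control CD8 T cells. C1q gauges macrophage RNA only, and Irgm1 averaged 200.7 CPM in iKO monocytes against 151.9 CPM in iKO macrophages. The part of released RNA in the CD8 T cell levels was not tested.
Shares of cells were compared after each cell was thinned to 2000 UMIs, which left out 13 iKO and 4 control CD8 T cells as too shallow. Igtp was seen in 14.2 ± 1.5% (SD, n = 4) of iKO and 10.4 ± 2.1% of control CD8 T cells, against 50.2% and 32.4% without thinning. Iigp1 was seen in 7.57 ± 2.23% and 2.78 ± 1.26%, against 25.9% and 7.68% without thinning. C1qa was seen in 3.11% of iKO and 5.71% of control CD8 T cells. C1qa is far more abundant in macrophages than Irgm1 or Iigp1 are, so its share is not a background share for these genes. Median depth was 14146 UMIs in CD8 T cells and 17604 in macrophages. None of the 54 shares tested passed (smallest adjusted p = 0.119 by exact permutation, with 13 at the smallest possible p). The adjustment could be passed only if most of the 54 stood at that smallest p, so this outcome says little about any 1 share.

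In monocytes all 5 tested genes rose. The fold changes of Iigp1, Tgtp2 and Irgm2 were larger in value there than in the other types, while those of Irgm1 and Igtp were larger in neutrophils. Irgm1 measured 306.1, 270.3, 123.3 and 103.0 CPM in monocytes of iKO samples 1 to 4 and 65.2, 27.4, 44.3 and 36.3 CPM in controls. All iKO samples were above all controls, and iKO samples 1 and 2 were far above samples 3 and 4. The log2 fold change was 2.16 ± 0.40 (SE, adjusted p = 0.0075). Iigp1 measured 303.2, 210.7, 78.4 and 41.4 CPM in iKO samples and 36.3, 3.9, 7.3 and 12.8 CPM in controls. The lowest iKO sample stood only just above control sample 1, and the fold change was 3.29 ± 0.73 (adjusted p = 0.0163). Tgtp2 rose by 2.98 ± 0.66 (adjusted p = 0.0165), Igtp by 1.92 ± 0.50 (adjusted p = 0.0292) and Irgm2 by 1.91 ± 0.44 (adjusted p = 0.0190).
Tgtp1 was under the filter, at 12.4, 7.1, 1.0 and 1.5 CPM in iKO monocytes and at most 0.9 CPM in controls. All 6 genes had no overlap between genotypes in monocytes, where 15.1% of genes had none. The 5 of 5 called stand against 8.16% of the 10227 genes tested, the highest share of any type. Fewer calls were made without control sample 4 (1 gene, Irgm1), control sample 3 (2 genes), control sample 2 or iKO sample 2 (3 genes each) or iKO sample 1 (4 genes), and 6 were made without iKO sample 3. With any 1 sample left out, Irgm1 passed (adjusted p up to 0.0339) and the fold changes of all 6 genes in monocytes were above 0.

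**Figure D4:**
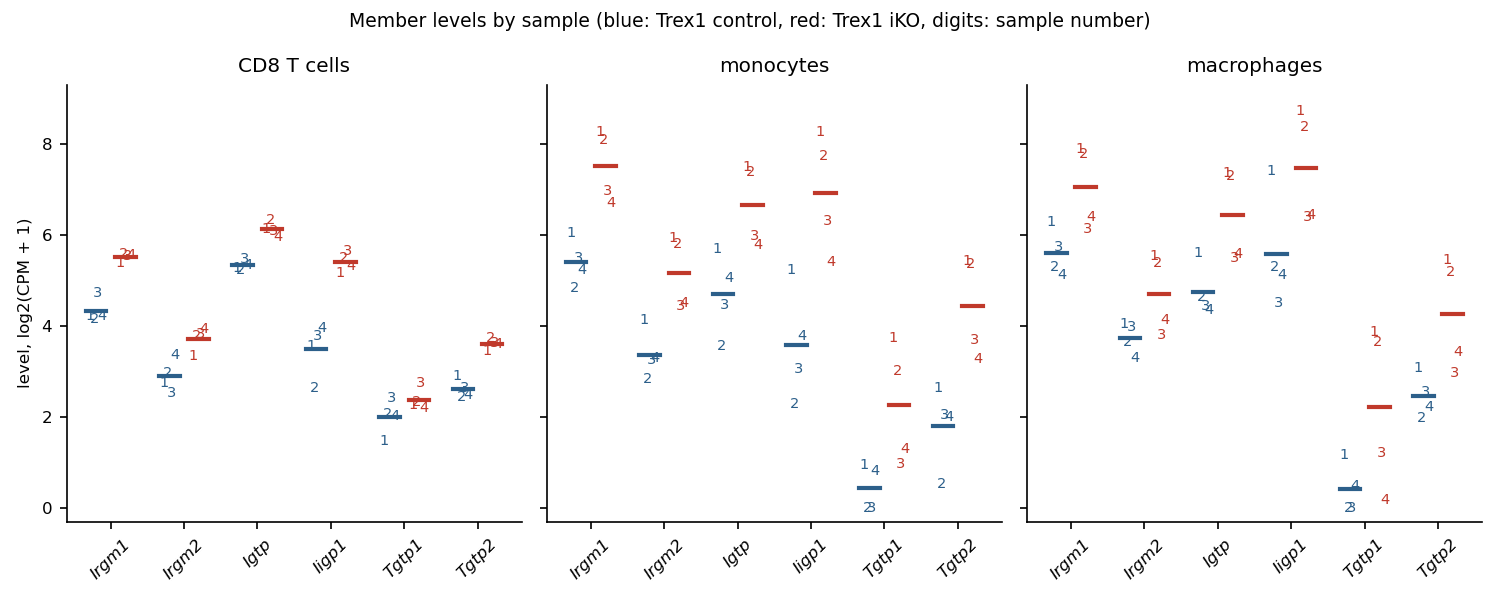
Levels of the 6 immunity-related GTPases in CD8 T cells, monocytes and macrophages, on the y axis as log2(CPM + 1), with digits for the 4 samples of each genotype (blue: Trex1 control, red: Trex1 iKO) and a line at the mean. In CD8 T cells the 4 iKO samples cluster, while in monocytes and macrophages iKO samples 1 and 2 lie above 3 and 4, and control sample 1 lies highest among controls.

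Macrophages had no call, and the fold changes of Irgm1, Irgm2, Iigp1 and Tgtp2 there were smaller in value than in monocytes. Irgm1 measured 236.7, 219.2, 69.3 and 82.5 CPM in macrophages of iKO samples 1 to 4 and 76.9, 38.3, 52.3 and 33.7 CPM in controls. Samples 1 and 2 of the iKO group were far above every control, and iKO sample 3 was below control sample 1. The log2 fold change was 1.61 ± 0.45 (SE, adjusted p = 0.0901). Iigp1 measured 417.3, 329.9, 82.4 and 86.0 CPM in iKO samples and 169.1, 38.3, 21.6 and 33.8 CPM in controls, where control sample 1 exceeded iKO samples 3 and 4. Its fold change was 1.82 ± 0.75 (adjusted p = 0.208). Igtp stood at 1.91 ± 0.52 (adjusted p = 0.0837), Tgtp2 at 2.39 ± 0.64 (adjusted p = 0.0791) and Irgm2 at 1.26 ± 0.43 (adjusted p = 0.141).
With edgeR 0 of 5 genes were called in macrophages, where 1.19% of genes tested were called higher and 1.17% lower. All 5 had an unadjusted p under 0.05, and DESeq2 called 3 of them. With the sample number as a replicate block, Igtp (1.69 ± 0.27, adjusted p = 0.0276) and Iigp1 (1.85 ± 0.30, adjusted p = 0.0325) passed, and without iKO sample 3 all but Iigp1 did (4 genes). No gene was free of overlap between genotypes in macrophages, against 8.24% of genes.

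Samples 1 and 2 of the iKO group stood high in several types. The counts that follow describe the samples. How many of all genes split the samples in the same ways was not counted, so they are no result about the family. In monocytes, macrophages, cDC2 and mature dendritic cells, iKO samples 1 and 2 were both above iKO samples 3 and 4 for 6 of 6 genes. That was so for 5 of 6 in CD4 T cells, 4 in neutrophils, 3 in Treg, 2 in B cells and 1 in CD8 T cells. Control sample 1 was the highest control for 6 of 6 genes in monocytes, macrophages and cDC2, for 5 in Treg, 4 in CD4 T cells, 3 in B cells, 2 in mature dendritic cells and 1 each in CD8 T cells and neutrophils.
The samples also differed in their T cells. Among kept cells of iKO samples 1 to 4, 30.8%, 40.3%, 11.2% and 9.65% were CD8 T cells, and among those of control samples 1 to 4 these shares were 20.8%, 11.96%, 7.23% and 4.64%. Ifng, which encodes interferon gamma, measured 362.0, 354.9, 30.8 and 25.6 CPM over all cells of iKO samples 1 to 4 and 151.8, 56.4, 39.0 and 15.7 CPM of control samples 1 to 4. Samples 3 and 4 of the iKO group had less Ifng than control samples 1, 2 and 3. Irgm1 measured 69.3 and 82.5 CPM in macrophages of iKO samples 3 and 4. In macrophages of control samples 1 to 4 it measured 76.9, 38.3, 52.3 and 33.7 CPM. In CD8 T cells Irgm1 and Iigp1 of iKO samples 3 and 4 lay within or above the range of samples 1 and 2. The part of Ifng or of CD8 T cell number in these levels was not tested.

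**Figure D5:**
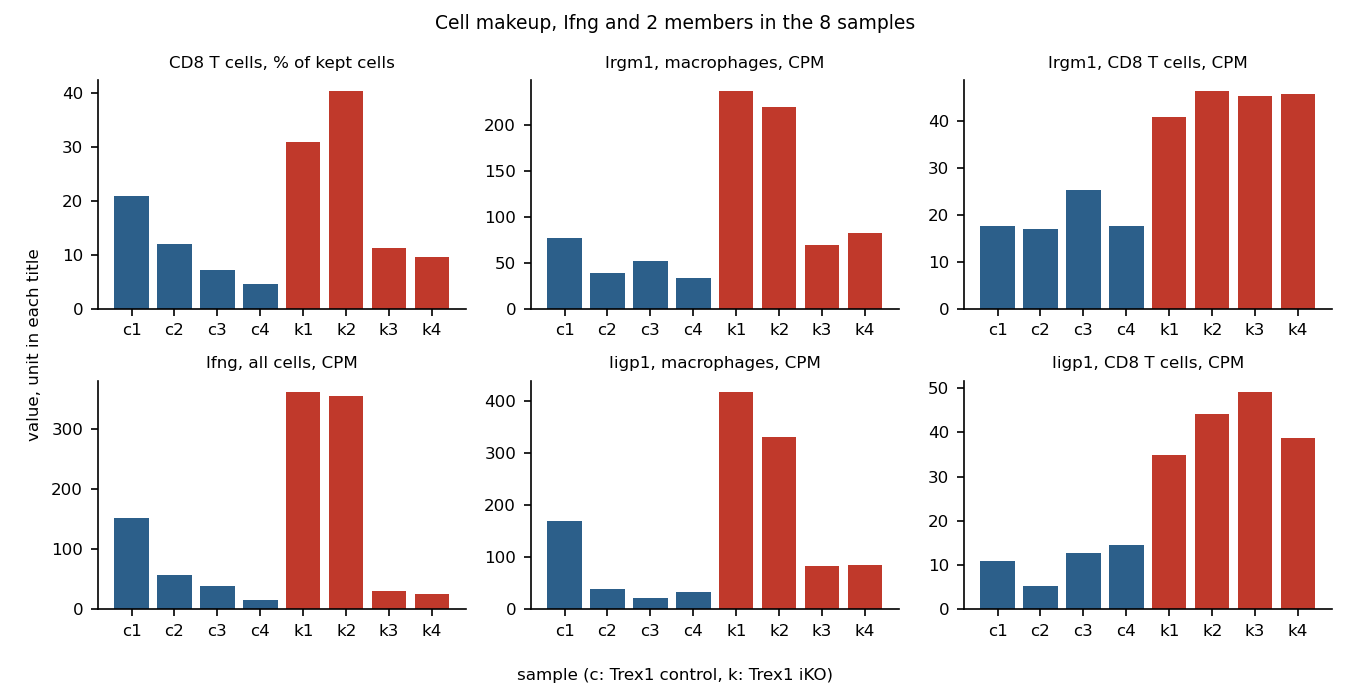
Bars for the 8 samples (c1 to c4: Trex1 control, k1 to k4: Trex1 iKO) of CD8 T cells as a percent of kept cells, Ifng over all cells, and Irgm1 and Iigp1 in macrophages and in CD8 T cells, in CPM. In the macrophage and Ifng panels k1 and k2 are highest, with k3 and k4 below c1 for Ifng and Iigp1, while in CD8 T cells all 4 iKO samples exceed all controls.

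RNA of T cells was also present in the myeloid sums and was higher in iKO. The 3 T cell markers Cd3d, Cd3e and Cd3g were all detected and summed to 34.5 to 40.1 CPM in iKO and 20.9 to 29.1 CPM in control monocytes, and to 25.3 to 32.4 and 13.7 to 20.1 CPM in macrophages. That is 1.06% and 0.899% of their level in CD8 T cells for monocytes of the 2 genotypes. At those shares T cell RNA would account for 0.474 of the 200.7 CPM of Irgm1 in iKO monocytes and 0.174 of 43.3 CPM in controls. The gates of both types admitted at most 2 UMIs of these markers per cell. The gates therefore bound this gauge from above, and it does not show how much T cell RNA was present. The gates also held different mixtures of cell states. Leiden cluster 9 held 22.7% of iKO and 1.56% of control monocytes and cluster 1 held 6.89% and 24.6%, while cluster 4 held 36.8% of iKO and 2.89% of control macrophages. Cluster 0 held 34.3% of iKO and 8.59% of control CD8 T cells. The part of these states in the levels of the 6 genes was not tested.

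In neutrophils all 3 regulators rose. Igtp measured 176.9, 115.9, 71.0 and 49.6 CPM in neutrophils of iKO samples 1 to 4 and 24.5, 16.3, 22.7 and 13.1 CPM in controls. Irgm1 measured 194.1, 190.5, 88.8 and 49.6 CPM against 18.8, 33.8, 21.3 and 22.8 CPM. Neither gene overlapped between genotypes, against 1.83% of genes without overlap. Igtp rose by 2.52 ± 0.36 (SE, adjusted p = 0.0024), Irgm1 by 2.57 ± 0.38 (adjusted p = 0.0025) and Irgm2 by 1.50 ± 0.32 (adjusted p = 0.0281). The 3 of 3 tested stand against 2.12% of 4902 genes. Igtp and Irgm1 passed with any 1 sample left out, and Irgm2 was lost without control sample 1, 2 or 4 or without iKO sample 1 or 3 (adjusted p up to 0.107). The effector Iigp1 was under the filter in neutrophils, at 45.7 CPM in iKO sample 1 and 2.2 to 7.9 CPM in the other iKO samples, and 4.9 to 13.3 CPM in controls. Neutrophils were 0.844% to 4.02% of kept iKO cells and 7.23% to 14.8% of control cells, so their iKO sums rest on 32 to 110 cells.

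CD4 T cells, Treg and B cells had 1 or 2 genes called each, and whether these types differ from one another was not tested. Iigp1 measured 405.6, 327.2, 92.7 and 117.9 CPM in CD4 T cells of iKO samples 1 to 4 and 77.3, 64.9, 48.4 and 34.3 CPM in controls. It was the 1 gene of 6 without overlap there, where 3.07% of genes had none. It rose by 1.98 ± 0.39 (SE, adjusted p = 0.0113), alone among the 5 genes tested there, against 1.56% of genes called higher, and was lost without control sample 3 (adjusted p = 0.0529). Irgm2 in CD4 T cells stood at 0.08 ± 0.32 (adjusted p = 0.956) and Tgtp2 at 0.30 ± 0.40 (adjusted p = 0.809).
In Treg, Iigp1 measured 491.2, 553.0, 371.8 and 241.4 CPM in iKO samples and 283.7, 104.4, 92.6 and 47.9 CPM in controls, and only control sample 1 reached into the iKO range. Iigp1 rose by 1.62 ± 0.36 (adjusted p = 0.0242) and Irgm1 by 1.06 ± 0.27 (adjusted p = 0.0431), 2 of 5 tested against 1.59% of genes called higher and 1.63% called lower. With the sample number as a block 4 of the 5 passed, Igtp (1.00 ± 0.19, adjusted p = 0.0158) and Irgm2 (0.98 ± 0.23, adjusted p = 0.0397) in addition. The Treg calls depended on single samples: 5 genes passed without control sample 1 and 4 without iKO sample 4. None passed without control sample 2, 3 or 4 or iKO sample 1 or 2, and Iigp1 alone passed without iKO sample 3.
In B cells Irgm1 was the only gene above the filter. The filter was passed through the iKO samples alone, where Irgm1 was high, so the call is no separate sign of a rise. Irgm1 measured 62.5, 57.7, 65.1 and 57.9 CPM in iKO samples and 36.5, 33.8, 25.1 and 10.3 CPM in controls. The log2 fold change was 1.26 ± 0.29 (adjusted p = 0.0094), against 2.28% of genes called higher and 1.41% called lower. The call was lost without control sample 3 (adjusted p = 0.120), iKO sample 1 (0.0570) or iKO sample 4 (0.0975).

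Dendritic cells gave no call with edgeR. Irgm1 in cDC2 measured 211.8, 250.1, 34.9 and 66.2 CPM in iKO samples and 97.4, 37.0, 53.6 and 32.0 CPM in controls, so that iKO sample 3 was below 3 controls. The fold change was 1.30 ± 0.53 (SE, adjusted p = 0.346). In mature dendritic cells, which carry antigen towards lymph nodes, Irgm1 stood at 1.40 ± 0.39 (adjusted p = 0.120). In each of these types 0 of 3 tested genes were called and 2 had an unadjusted p under 0.05. DESeq2 called 0 in cDC2 and 1, Irgm1, in mature dendritic cells, and 0.647% and 0.519% of genes were called higher by edgeR. Irgm2 was the 1 gene without overlap in mature dendritic cells, against 2.48% of genes. Without iKO sample 4, 2 genes passed in mature dendritic cells.
Natural killer cells, gamma-delta T cells, cDC1 and plasmacytoid dendritic cells had too few sums for a test. Irgm1 measured 77.1 and 54.4 CPM in natural killer cells of iKO samples 1 and 2 and 30.5 and 30.2 CPM in control samples 1 and 3. Tgtp2 was lower in natural killer cells of both iKO samples, at 4.53 and 5.18 CPM against 12.2 and 18.9 CPM. Irgm2 averaged 15.9 CPM there against 23.2 CPM in controls, whose values ran from 3.8 to 42.7 CPM. These values rest on few UMIs, 3 in iKO and 7 in control sums for Tgtp2 and 10 and 8 for Irgm2. Igtp measured 381.3 and 165.4 CPM in gamma-delta T cells of the same iKO samples and 69.3 and 67.9 CPM in the same controls. Plasmacytoid dendritic cells of iKO sample 3 were below the 1 control sum for Irgm1 (28.5 against 58.3 CPM).

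The genotype difference of each gene was compared between each type and macrophages in 1 edgeR model with sample as a term. Only Tgtp2 in CD4 T cells passed, with a difference of -1.90 ± 0.38 (SE, adjusted p = 0.0317), where 0.0908% of genes were called below 0. Tgtp2 measured 29.7, 43.7, 7.0 and 16.3 CPM in iKO CD4 T cells and 25.8, 14.2, 20.0 and 15.6 CPM in control CD4 T cells, and the groups overlap. In macrophages it measured 42.4, 35.5, 6.8 and 9.8 CPM in iKO samples and 7.4, 3.0, 4.9 and 3.7 CPM in controls. Few genes of any kind passed: 0.00919% above 0 in CD8 T cells, 0.099% above and 0.099% below in Treg, 0.0874% and 0.0582% in B cells, 0.0948% and 0.0211% in neutrophils, 0.0102% and 0.0102% in mature dendritic cells, and 0.121% above 0 in CD4 T cells. By exact permutation the CD4 T cell difference of Tgtp2 was at the smallest possible p (0.0286) and did not pass after adjustment over 48 values (adjusted p = 0.229). A value could pass that adjustment only if most of the 48 stood at the smallest p.
The difference of monocytes from macrophages was 1.37 for Iigp1 and missed the threshold (adjusted p = 0.0574). By permutation the monocyte differences of Irgm1, Irgm2, Iigp1 and Tgtp2 were each at the smallest possible p of 0.0286 as well, and none passed after adjustment. Between CD8 T cells and macrophages no gene passed (smallest adjusted p = 0.461). In sums of all cells, Irgm1 (1.55 ± 0.24, adjusted p = 0.0137) and Irgm2 (1.08 ± 0.22, adjusted p = 0.0429) rose, 2 of 6 against 1.69% of genes. No overlap between genotypes was seen for 4 of 6, against 9.27% of genes. With the replicate block 5 of 6 passed, all but Tgtp1. Irgm1 in all cells was lost without control sample 2 or 3, and Irgm2 was lost without control sample 1, 2, 3 or 4 or iKO sample 1 or 2.

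Other immunity-related GTPases on the list of 12 mostly went the same way in monocytes. The lowest log2 fold change on the list was below 0 in monocytes (-0.25), macrophages (-0.20), CD8 T cells (-0.38) and B cells (-0.22). In monocytes 7 of 8 tested were higher in iKO and 0 lower, against 8.16% and 7.02% of all genes, with a median log2 fold change of 1.68 beside -0.01 over all genes tested. F830016B08Rik (4.49 ± 0.83 SE, adjusted p = 0.0078), Gm4951 (4.01 ± 0.76, adjusted p = 0.0091) and Ifi47, also called Irg47 (2.23 ± 0.45, adjusted p = 0.0117), were among them. Ifi47 also rose in neutrophils (3.33 ± 0.46, adjusted p = 0.0019), B cells (1.62 ± 0.27, adjusted p = 0.0004), Treg (1.04 ± 0.25, adjusted p = 0.0310) and CD8 T cells (0.81 ± 0.08, adjusted p = 0.0009). On the list, 1 of 2 tested were higher in neutrophils, 1 of 2 in B cells, 2 of 5 in Treg and 1 of 4 in CD8 T cells. Over all genes tested these shares were 2.12%, 2.28%, 1.59% and 2.18%. In CD4 T cells 0 of 2 passed, against 1.56% of all genes. In macrophages 0 of 8 passed, at a median of 1.73. The promoter window of Ifi47 held neither motif.
Over 90 sums of 13 types and 8 samples, the genes whose log2 level was most like each member were drawn from 7828 genes, and the correlations describe sums that share samples and genotype. Irgm1 was closest to Daxx (Pearson r = 0.84), Zbp1 (0.82) and Rnf213 (0.80), and Irgm2 to Isg20 (0.72), Zbp1 (0.69) and Mov10 (0.69). Igtp was closest to Ifi47 (0.79), Nmi (0.79) and Zbp1 (0.74), and Iigp1 to Gm4951 (0.76), F830016B08Rik (0.75) and Ly6a (0.71). Tgtp1 was closest to Tap2 (0.74), Phf11c (0.68) and Tap1 (0.68), and Tgtp2 to Nmi (0.74), Ifi47 (0.73) and Serpina3g (0.68). Many of these are known interferon-stimulated genes. Between the 6 genes themselves r ran from 0.33 (Irgm2 with Tgtp1) to 0.73 (Igtp with Tgtp2).

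Upstream genes of interferon gamma and type I interferon signalling moved in part. The list holds Ifnar1, Ifnar2, Tyk2, Stat2 and Irf9 of type I interferon signalling beside Ifng and its receptor genes. Its counts therefore do not separate the types of interferon. Of 15 tested in each type, 6 were higher in iKO monocytes, 4 in CD8 T cells and 1 in macrophages, and none was lower. Over all genes tested, 8.16% were called higher in monocytes, 2.18% in CD8 T cells and 1.19% in macrophages. The 1 in macrophages was Ifng itself (1.56 ± 0.24 SE, adjusted p = 0.0251), at 6.32 to 8.88 CPM in iKO and 2.04 to 3.71 CPM in controls, beside T cell marker sums that were higher too. In CD8 T cells Stat2 (0.71 ± 0.14, adjusted p = 0.0193) and Irf9 (0.92 ± 0.18, adjusted p = 0.0202), which act together on the ISRE, rose. Irf1, a transcription factor that also binds such elements, rose by 0.58 ± 0.13 (adjusted p = 0.0332).
The group of ubiquitin genes, ubiquitin receptors and galectins at coated vacuoles had 3 of 12 tested higher in macrophages, where 1.19% of all genes were called higher and 1.17% lower. Among the 3 were Rnf213, a ubiquitin ligase that coats bacteria and vacuoles (1.48 ± 0.31, adjusted p = 0.0432), and Lgals9, a sugar-binding galectin (0.94 ± 0.17, adjusted p = 0.0375). The ATG8 group, which helps to load immunity-related GTPases onto vacuoles, had 0 of 11 higher and 1 lower in macrophages, Gabarapl1 (-0.83 ± 0.14, adjusted p = 0.0281). In CD8 T cells 0 of 11 passed in either direction. Autophagy initiation genes had 0 of 10 called in macrophages, and the mitochondrial group named with Irgm1 had 1 of 7 lower, Bnip3l, a mitophagy receptor (-0.76 ± 0.14, adjusted p = 0.0356). In monocytes the ATG8, initiation and mitochondrial groups had 0 higher and 1, 1 and 2 lower of 11, 10 and 7 tested, where 8.16% of all genes were called higher and 7.02% lower.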

How the data were processed

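UMI counts were deposited as 1 matrix per sample. Per the file headers these come from Cell Ranger 7.1.0, and per the submitters' processing notes from build GRCm39. The sources used here do not give the intron setting or how hashtags were assigned. Barcodes with under 300 genes or over 10% mitochondrial counts (1241 of 23731) and 438 with a Scrublet score over 0.25 were removed. Marker gates assigned types, with limits set after marker detection by cluster was seen, and left 5891 kept cells in no gate. The members, lists and tests were chosen with earlier results of these data known. All members were named, with up to 3 genes per list called in macrophages with the largest fold change and the 3 genes most alike each member. Ifi47, Gm4951, F830016B08Rik, Stat2, Irf9 and Irf1 were named after their values were seen, and some list genes are not reported here. Summed counts were tested with edgeR 4.0.16 (TMM, filterByExpr, quasi-likelihood, Benjamini-Hochberg over all genes tested in a type, threshold 0.05), with DESeq2 1.42.0 as an alternative. The test was tried on simulated data. Gene-level comparisons of single values used exact permutations (scipy), with a pseudocount of 1. Same-numbered samples of the 2 genotypes, which the labels do not say are pairs, deviated together (r = 0.50, 0.24, 0.14 and 0.53), though iKO sample 2 correlated better with control sample 1 (0.58) and iKO sample 3 with control sample 4 (0.35). All 4 same-number values exceed 0.1, the limit set for pairing, so a blocked fit on that number is given where it changes a call. Chi-square over degrees of freedom between replicates was 8.19 to 230.3, far above sampling noise, so none was a duplicate. Total UMIs per sample were 17111065 to 96457227. Leaving out each sample, another scaling, no low-count filter, kept doublets, a stricter gate and cluster classes were tried. Cells in no gate and types with under 3 sums per genotype were not tested.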

Additional observations from a re-analysis of the deposited data

Results flagged for a closer look

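In 126 groups of 4 samples, 17 had 1 sample set far from the other 3 (Dixon's test at 95%), and chance flags about 1 in 20 groups. Control sample 1 was that sample in 9 of the 17. It was the high sample for Iigp1 in macrophages (169.1 CPM, next 38.3), cDC2 (123.0 CPM, next 31.2), B cells (36.5 CPM, next 10.3) and all cells (60.9 CPM, next 28.5). It was also the high control for Igtp in macrophages (47.2 CPM), Irgm1 in Treg (76.7 CPM), Tgtp2 in Treg (28.1 CPM) and cDC2 (24.0 CPM), and Tgtp1 in mature dendritic cells (31.4 CPM). Control sample 3 stood high for Irgm1 in CD8 T cells (25.3 CPM, next 17.7), Irgm2 in neutrophils (24.0 CPM, next 16.3) and Tgtp1 in B cells (1.03 CPM, the others at 0). Tgtp1 in neutrophils stood at 2.61 CPM in control sample 4 and 11.1 CPM in iKO sample 2, with the others of each genotype at 0. In iKO samples, Iigp1 in neutrophils was 45.7 CPM in sample 1 (next 7.94), Igtp in plasmacytoid dendritic cells 35.6 CPM in sample 2 (next 17.3), and Tgtp1 there 4.08 CPM in sample 3 (the others at 0). The Tgtp1 flags with the others at 0 rest on 2 UMIs in control B cells and 1 UMI in iKO plasmacytoid dendritic cells. In neutrophils they rest on 4 UMIs in control and 7 UMIs in iKO samples. Any UMI in such a group gives a flag.

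The genotype difference of Tgtp2 in CD4 T cells minus that in macrophages was -1.90 in log2 by edgeR's interaction test (adjusted p = 0.0317).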

How the results depend on the processing

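Of 315 member fold changes under settings other than left-out samples, 275 kept their side of the threshold, 34 newly passed, 6 no longer did and 0 reversed. Of 328 with 1 sample left out, 268 kept their side, 41 were lost, 15 gained and 4 reversed. The reversed ones were in CD4 T cells: Irgm2 at -0.09 without control sample 3, -0.01 without control sample 4 and -0.16 without iKO sample 1, and Tgtp2 at -0.17 without iKO sample 2. Over all left-out samples these 2 ranged up to 0.30 (Irgm2, without control sample 1) and 0.58 (Tgtp2, without iKO sample 3). Counts of genes called were as follows. With DESeq2 they were 5 in all cells, 1 in Treg, 0 in B cells, 3 in macrophages and 1 in mature dendritic cells. With the sample number as a replicate block they were 5 in all cells, 4 in Treg and 2 in macrophages. The block also added Irgm2 in CD8 T cells. Without the low-count filter they were 3 in CD4 T cells, 5 in Treg, 3 in macrophages, 2 in cDC2 and 3 in mature dendritic cells. With cluster classes they were 2 in CD4 T cells and 1 in cDC2, and with the stricter gate 0 in Treg. With 1 sample left out they ranged from 0 to 2 in all cells, CD4 T cells and mature dendritic cells, 0 to 5 in Treg, 0 to 1 in B cells, 1 to 6 in monocytes and 0 to 4 in macrophages. Effects that differed from macrophages numbered 1, against 10 without the filter and 0 by exact permutation. The cause was not tested. The stricter gate could not test B cells, cDC2, mature dendritic cells or neutrophils. Scaling without normalization factors, chosen after seeing the data, called 2 genes in neutrophils. Low UMI counts limit Tgtp1 in every type.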
